A study of Homo sapiens with 6 samples.

Results

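The genes described here are 10 that melanoma cells can use to restrain immune attack: the checkpoint ligand genes CD274, PDCD1LG2, CD276, VTCN1, PVR and NECTIN2, the adenosine-forming ectoenzyme gene NT5E, the galectin gene LGALS9, the phagocytosis checkpoint gene CD47 and the cytokine gene IL10. They were chosen by symbol, and all 10 matched a row among the 58051 Ensembl gene IDs of a table of RNA-seq read counts. The cells were A375, an established human melanoma line with a mutant BRAF gene. In 3 libraries they received 10 ng/mL of human recombinant TGFB1 for 2 h, and in 3 libraries the Vehicle of 4 mM HCl with 1 mg/mL BSA for 2 h, in both groups after 2 h of serum starvation. The series' design text calls the triplicates technical, so p-values measure the spread between libraries of 1 line and not that between independent cultures.

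Checkpoint ligands sit on the surface of a tumour cell and bind inhibitory receptors on lymphocytes or macrophages. PD-L1 and PD-L2, the products of CD274 and PDCD1LG2, bind PD-1 on T cells, and CD274 is classically induced by interferon-gamma through JAK and STAT proteins. TGFB1 is itself an immunosuppressive cytokine, which binds receptor kinases on the target cell and acts through SMAD transcription factors. The comparison asks which of these genes changed their RNA level within 2 h of the ligand.

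Library totals ran from 24713894 to 34895075 counts. The ligand's feedback gene SMAD7, whose protein blocks the TGF-beta receptor, stood at 61.1 ± 3.49 CPM with TGFB1 and 9.27 ± 1.74 CPM with Vehicle (SD, n = 3 each). CPM are read counts scaled to a common library total, corrected by TMM, and carry no correction for gene length. On the first principal component, which held 28.9% of the variance, the TGFB1 libraries lay between 17.7 and 20.7, and Vehicle replicate 1 lay at -37.1, apart from Vehicle replicates 2 and 3 at -13.4 and -8.25. Melanoma and melanocyte markers were mixed: CSPG4, MCAM, PRAME and S100B were expressed, while 5 of the 16 listed averaged under 1 CPM. These were the pigment cell genes PMEL, MLANA, TYR and TYRP1 and the lineage factor gene SOX10, with SOX10 at 0 counts in all 6 libraries. Overlap of SOX10 exons with those of other genes is not given here, and the strand setting was not stated. Its 0 counts therefore need not mean that its RNA was absent. Leukocyte markers were near absent: the 16 on the list summed to 7.73 to 8.28 CPM in TGFB1 libraries and 8.32 to 11.2 CPM in Vehicle libraries, and PTPRC, which encodes the pan-leukocyte protein CD45, had between 2 and 13 counts in each library. The 11 fibroblast and endothelial markers summed to 31.8 to 33.99 CPM with TGFB1 and 36.2 to 38.4 CPM with Vehicle. The part of these sums in any result was not tested.

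IL10 fell with TGFB1 and was the single gene of the 10 to pass the test. NT5E, CD47, PVR and CD276 were abundant, with log2 fold changes between -0.01 and 0.10. NECTIN2 stood at an intermediate level, CD274 and PDCD1LG2 were low, and VTCN1 and LGALS9 were close to the detection limit. Of the 10 genes 8 passed the low-count filter, and VTCN1 and LGALS9 had too few counts to be tested. Over all 16690 tested genes 3.31% were called in either direction by edgeR's quasi-likelihood test, with 0.05 as the threshold on Benjamini-Hochberg adjusted p-values, and 0.887% were called lower with TGFB1. Of the 8 genes 1 was called, and with so few members this share is a description. The median log2 fold change was -0.0046 over the 8 and -0.0067 over all tested genes.

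Promoter sequences are shown for the gene that fell (IL10), its neighbour that fell as well (IL24), the most abundant of the 10 per kilobase (NT5E) and the PD-L1 gene (CD274). Each runs 5′ to 3′ on the gene's strand from 250 bases before the RefSeq start to 50 bases after it, in RefSeq's GRCh38.p14. IL10 lies at chr1:206772445-206772744 (minus strand), IL24 at chr1:206897193-206897492 (plus strand), NT5E at chr6:85449833-85450132 (plus strand) and CD274 at chr9:5450292-5450591 (plus strand). The RefSeq start was that of GENCODE for IL10 and IL24, and lay 499 and 39 bases from it for NT5E and CD274. Capitals mark matches on either strand to the motifs named after the sequences.
IL10: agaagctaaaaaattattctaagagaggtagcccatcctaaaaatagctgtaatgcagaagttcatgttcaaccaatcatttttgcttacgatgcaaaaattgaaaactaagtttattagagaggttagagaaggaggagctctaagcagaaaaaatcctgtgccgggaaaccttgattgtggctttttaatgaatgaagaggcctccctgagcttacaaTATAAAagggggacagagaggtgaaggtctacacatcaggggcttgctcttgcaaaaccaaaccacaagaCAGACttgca
IL24: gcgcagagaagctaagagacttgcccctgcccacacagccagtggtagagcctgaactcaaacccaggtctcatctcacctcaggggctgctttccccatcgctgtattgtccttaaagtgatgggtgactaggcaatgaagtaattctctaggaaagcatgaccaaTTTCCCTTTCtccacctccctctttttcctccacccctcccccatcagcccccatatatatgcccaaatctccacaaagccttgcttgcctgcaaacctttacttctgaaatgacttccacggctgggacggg
NT5E: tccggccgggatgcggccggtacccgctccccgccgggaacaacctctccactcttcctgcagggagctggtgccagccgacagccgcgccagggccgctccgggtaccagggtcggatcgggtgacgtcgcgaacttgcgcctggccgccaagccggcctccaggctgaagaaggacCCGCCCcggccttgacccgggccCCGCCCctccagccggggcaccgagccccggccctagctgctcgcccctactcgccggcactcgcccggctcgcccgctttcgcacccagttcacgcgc
CD274: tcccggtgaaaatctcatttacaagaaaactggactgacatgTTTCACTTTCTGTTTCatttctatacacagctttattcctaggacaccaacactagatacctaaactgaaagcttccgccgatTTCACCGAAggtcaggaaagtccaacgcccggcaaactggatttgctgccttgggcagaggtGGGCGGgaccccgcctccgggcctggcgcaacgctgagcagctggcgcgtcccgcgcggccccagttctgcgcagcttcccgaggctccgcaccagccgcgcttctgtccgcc

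RefSeq promoters were at hand for 9 of the 10 genes, all but PDCD1LG2. For those not printed, the RefSeq start lay 33 (VTCN1), 112 (PVR), 122 (NECTIN2), 417 (CD276), 831 (CD47) and 1390 (LGALS9) bases from that of GENCODE. The matches of CD47 and LGALS9 thus lie in windows far from the GENCODE start. The motifs searched on both strands were the SMAD-binding element CAGAC, the SMAD palindrome GTCTAGAC, the AP-1 site TGACTCA, the STAT site TTCNNNGAA, the interferon-stimulated response element core (GAAA, any 2 bases, GAAA), the E-box CACGTG, the TATA box TATAAA, the GC box GGGCGG and the cyclic AMP response element TGACGTCA. The IL10 promoter held a TATA box 30 bases before its start and a SMAD-binding element 41 bases after it. Of the 9 promoters 1 held the TATA box, as did 11.5% of all 35097 promoters of that length, and 3 held the SMAD-binding element (IL10, PVR and CD47), against 45.2% of all. A GC box was found in 5 of the 9, those of CD274, CD276, NECTIN2, NT5E and CD47, against 44.9% of all promoters. The CD274 promoter held overlapping matches to the interferon response core that begin 208 and 202 bases before its start, and a STAT match 125 bases before it. The interferon response core was in 2 of the 9 promoters, CD274 and LGALS9, and in 3.58% of all, and IL24 held it 83 bases before its start. The STAT site was in 1 of the 9 (7.66% of all), the AP-1 site in 1 (VTCN1, 4.95% of all) and the cyclic AMP element in 1 (NECTIN2, 1.85% of all). The SMAD palindrome and the E-box were found in 0 of the 9, and in 0.202% and 7.25% of all promoters. A match is a description of the letters and not a binding site.

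IL10 encodes a cytokine that damps macrophage and T-cell activation, made mainly by leukocytes and also by some melanomas. It had 20, 22 and 27 counts in TGFB1 replicates 1, 2 and 3, or 0.608, 0.635 and 0.828 CPM, against 50, 61 and 65 counts in Vehicle replicates 1, 2 and 3, or 2.04, 2.002 and 1.86 CPM. Every TGFB1 library was below every Vehicle library, as was so for 7.47% of all tested genes. The means were 0.6904 ± 0.1201 CPM with TGFB1 and 1.97 ± 0.0933 CPM with Vehicle (SD, n = 3 each). The log2 fold change was -1.51 ± 0.33 (SE), with a 95% interval from -2.19 to -0.83 and an adjusted p = 0.00422 by edgeR, so that IL10 RNA stood at 35.2% of its Vehicle level. In bulk RNA, fewer cells with the transcript and less of it per cell cannot be told apart. The call held without Vehicle replicate 1, the library that stood apart (log2 fold change -1.48, adjusted p = 0.0112), and without each other library, with adjusted p-values from 0.00521 to 0.0355. The values rest on 69 counts with TGFB1 and 176 with Vehicle in all, which limits the precision of the fold change.

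**Figure D1:**
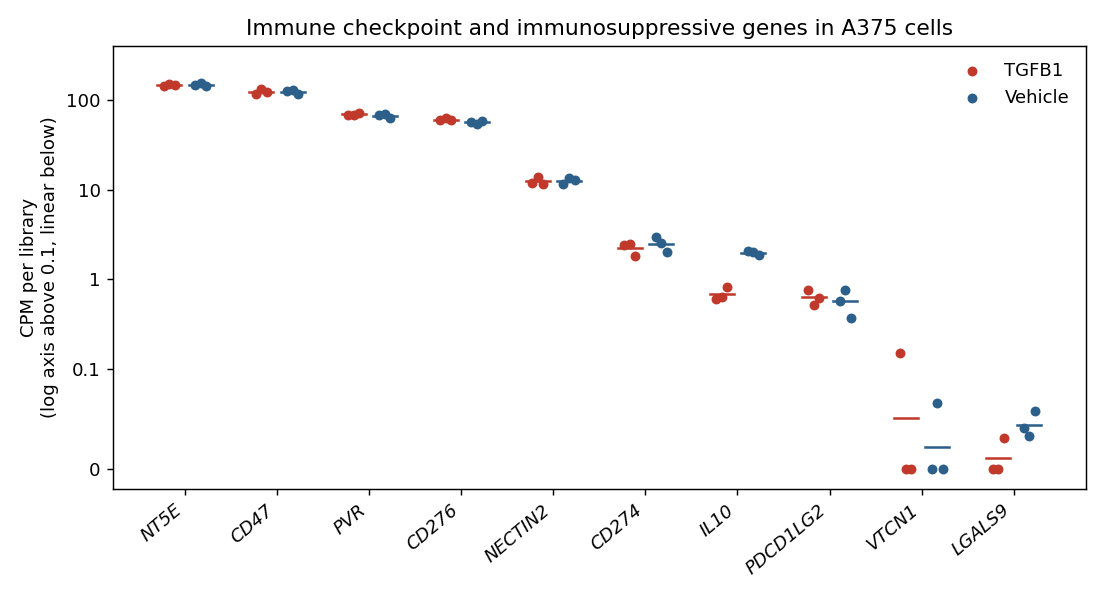
CPM of each of the 10 genes in each library (points, 3 TGFB1 left and 3 Vehicle right for each gene; bars are means), on an axis that is logarithmic above 0.1 CPM and linear below. IL10 is the tested gene whose groups lie farthest apart, at 0.608 to 0.828 CPM with TGFB1 and 1.86 to 2.04 CPM with Vehicle.

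An IL10 family member farther along chromosome 1 fell as well. IL24, a secreted cytokine first found as a gene of melanoma differentiation, stood at 81.5, 82.98 and 74.3 CPM in TGFB1 replicates 1, 2 and 3 and at 122.9, 115.5 and 114.1 CPM in Vehicle replicates 1, 2 and 3. The groups did not overlap, and the log2 fold change was -0.56 ± 0.06 (SE) with an adjusted p = 9.19e-09 by edgeR. IL10 spans positions 206767602 to 206772494 of chromosome 1 on the minus strand in GENCODE 29 (GRCh38), and IL24 starts 124.9 kb from the IL10 start. IL19 and IL20, family genes between them, were barely detected, at 0.1804 and 0.00962 CPM with TGFB1 and 0.193 and 0.0219 CPM with Vehicle.

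Of 10 other tested genes whose starts lay within 500 kb of the IL10 start, 1 passed the test, IL24. Over all tested genes 3.31% were called in either direction and 0.887% lower, and with so few genes the count is a description. DYRK3, named after its value was seen, had an unadjusted p under 0.05, as did 12.3% of all tested genes. It did not pass (log2 fold change 0.20 ± 0.09, SE, adjusted p = 0.312 by edgeR). On the far side from IL24 the nearest tested gene was MAPKAPK2, which encodes a kinase downstream of p38, at 64.2 ± 3.31 CPM with TGFB1 and 61.7 ± 4.33 CPM with Vehicle (SD, n = 3 each). Its log2 fold change was 0.06 ± 0.06 (SE, adjusted p = 0.81 by edgeR). Whether the falls of IL10 and IL24 share a cause was not tested.

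**Figure D2:**
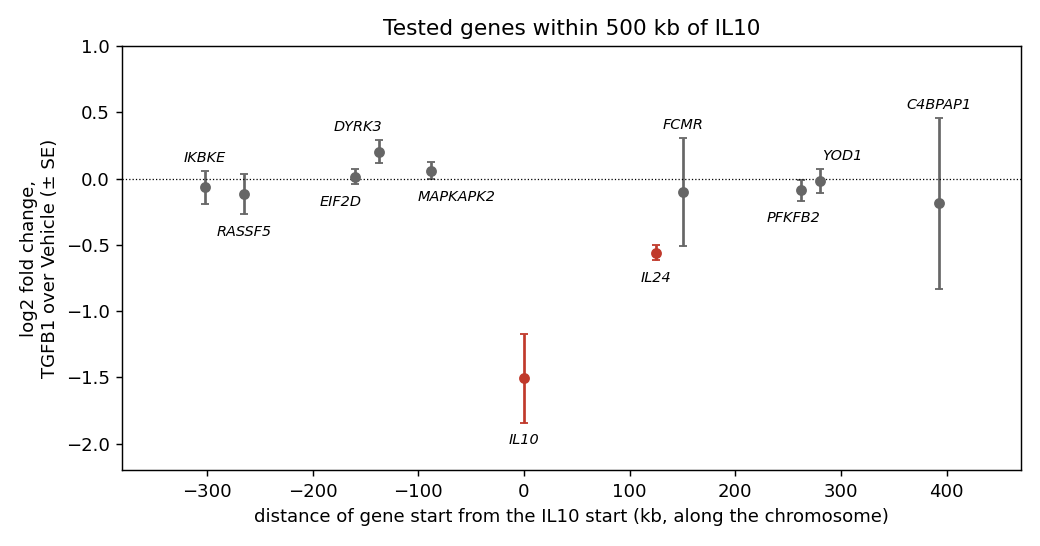
log2 fold change (TGFB1 over Vehicle, ± SE) of the 11 tested genes within 500 kb of the IL10 start, IL10 included, against the distance between gene starts in kb. The 2 genes past the test are in red, IL10 at -1.51 and IL24 at -0.56.

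Among receptors of the IL10 family, the chain gene IL10RB stood at 8.77 ± 0.0230 CPM with TGFB1 and 9.69 ± 1.51 CPM with Vehicle, whereas IL10RA, which encodes the chain that binds IL10, had 4, 0 and 4 counts with TGFB1 and 0, 1 and 0 with Vehicle. Of 14 listed family, receptor and signalling genes 8 were tested, 1 rose and 1 fell. Over all tested genes 2.43% were called higher and 0.887% lower. The gene that rose was SOCS3, which encodes a feedback inhibitor of cytokine receptors, at 24.9 ± 0.173 CPM with TGFB1 and 16.2 ± 2.09 CPM with Vehicle (log2 fold change 0.63 ± 0.10, SE, adjusted p = 3.19e-05 by edgeR), and the gene that fell was IL24. The median log2 fold change of the 8 was -0.06.

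The 3 tested genes whose log2 CPM followed IL10 most closely over the 6 libraries were ARRDC4 (Pearson r = 0.999), FOXD3 (0.996) and SLC2A3 (0.996). These are descriptions over 6 libraries that share 2 treatment groups. FOXD3, a neural crest transcription factor gene, stood at 15.7 ± 1.51 CPM with TGFB1 and 34.8 ± 1.86 CPM with Vehicle. SLC2A3, which encodes a glucose transporter, stood at 58.6 ± 1.77 CPM with TGFB1 and 79.8 ± 0.456 CPM with Vehicle, and ARRDC4, an arrestin-domain gene, at 11.4 ± 0.348 CPM with TGFB1 and 14.2 ± 0.0999 CPM with Vehicle. FOXD3 and SLC2A3 passed the test and ARRDC4 did not (adjusted p = 0.113 by edgeR).

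The PD-1 ligands were low in both groups. CD274 lies on chromosome 9 from 5450503 to 5470566 (GENCODE 29, GRCh38, plus strand), and PDCD1LG2 starts 60.1 kb from its start. CD274 stood at 2.43, 2.45 and 1.84 CPM in TGFB1 replicates 1, 2 and 3 and at 2.94, 2.56 and 2.01 CPM in Vehicle replicates 1, 2 and 3. The groups overlapped, with a log2 fold change of -0.15 and a 95% interval from -0.65 to 0.35 (adjusted p = 0.89 by edgeR). PDCD1LG2 had 25, 18 and 20 counts with TGFB1 and 14, 23 and 13 with Vehicle, or 0.631 ± 0.121 CPM with TGFB1 and 0.567 ± 0.191 CPM with Vehicle (SD, n = 3 each). Its groups overlapped too, and its log2 interval ran from -0.82 to 1.14, so that changes of up to 2.21-fold upward could not be told from none at this depth. For CD274 the interval of the fold ran from 0.637 to 1.28.

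Genes known to control PD-L1 were nearly all measurable. JAK2, which lies 466.1 kb from CD274 on the same chromosome and encodes a kinase of the interferon-gamma receptor, stood at 27.4 ± 1.09 CPM with TGFB1 and 27.9 ± 4.403 CPM with Vehicle. CMTM6, whose protein protects PD-L1 from degradation, stood at 180.7 ± 7.82 CPM with TGFB1 and 186.7 ± 12.3 CPM with Vehicle. JAK2 and CMTM6 were named after their values were seen. Of 20 listed PD-L1 regulators 19 were tested, 1 rose and 0 fell, with a median log2 fold change of -0.01. The shares over all tested genes were 2.43% higher and 0.887% lower. The gene that rose was RELA, an NF-kB subunit gene, at 33.7 ± 1.86 CPM with TGFB1 and 27.8 ± 1.504 CPM with Vehicle (log2 fold change 0.28 ± 0.08, SE, adjusted p = 0.0494 by edgeR). Its adjusted p was above 0.05 with upper-quartile scaling (0.0674), total-count scaling (0.0591) and limma-voom (0.0645). The same held when Vehicle replicate 1 (0.195) or 2 (0.113) was left out, or TGFB1 replicate 1 (0.135), 2 (0.0636) or 3 (0.335).

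CD276 encodes B7-H3, a B7 family protein common on solid tumours whose receptor is not settled. It lies on chromosome 15 from 73683966 to 73714518 (plus strand). CD276 stood at 58.97, 63.2 and 59.1 CPM in TGFB1 replicates 1, 2 and 3 and at 56.7, 54.5 and 57.6 CPM in Vehicle replicates 1, 2 and 3. All TGFB1 libraries were above all Vehicle libraries, and 16.5% of all tested genes had groups without overlap in one direction or the other. The difference did not pass the test, with a log2 fold change of 0.10 ± 0.06 (SE), a 95% interval from -0.02 to 0.23 and an adjusted p = 0.555 by edgeR.

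VTCN1, which encodes the inhibitory B7 protein B7-H4, had 5, 0 and 0 counts in TGFB1 replicates 1, 2 and 3 and 0, 2 and 0 counts in Vehicle replicates 1, 2 and 3. A count of 0 allows up to 3 counts, which was 0.0861 to 0.123 CPM in these libraries. No fold change is given at so few counts. Of 14 other B7 and butyrophilin family genes 9 were tested, and 0 rose and 0 fell by edgeR's adjusted p. 1 had an unadjusted p under 0.05, as did 12.3% of all tested genes. It was BTN3A1 (log2 fold change -0.34, adjusted p = 0.302). The median was -0.17. BTN2A1, a butyrophilin gene with a role in gamma-delta T cell recognition, stood at 14.3 ± 0.246 CPM with TGFB1 and 16.1 ± 2.47 CPM with Vehicle, and BTN3A2 at 14.8 ± 1.46 CPM with TGFB1 and 15.5 ± 0.639 CPM with Vehicle. CD80 and CD86, the ligands of CD28 and CTLA-4, had at most 8 and 7 counts in a library.

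PVR and NECTIN2 encode CD155 and CD112, nectin family ligands that bind the inhibitory receptors TIGIT and PVRIG or the activating receptor CD226 on T and NK cells. Both lie on chromosome 19, PVR from 44643798 to 44663583 and NECTIN2 from 44846175 to 44889228, with starts 202.4 kb apart on the plus strand. PVR stood at 68.2, 67.1 and 71.5 CPM in TGFB1 replicates 1, 2 and 3 and at 67.04, 69.5 and 63.7 CPM in Vehicle replicates 1, 2 and 3. The groups overlapped, with a log2 fold change of 0.05 and a 95% interval from -0.08 to 0.17 (adjusted p = 0.845 by edgeR). NECTIN2 stood at 11.95, 13.96 and 11.5 CPM in TGFB1 replicates 1, 2 and 3 and at 11.6, 13.4 and 12.7 CPM in Vehicle replicates 1, 2 and 3. Its groups overlapped too, with a log2 fold change of -0.01 and an interval from -0.24 to 0.22 (adjusted p = 0.987). Annotated genes share 121 exonic bases with PVR on the same strand and 128 with NECTIN2 on the opposite one, where reads could have been lost or added.

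Of 8 other nectin and nectin-like genes 7 were tested, and 0 rose and 0 fell by edgeR's adjusted p. Of these 7, 2 had an unadjusted p under 0.05, NECTIN1 and NECTIN4, as did 12.3% of all tested genes. The adhesion gene CADM1 stood at 134.7 ± 5.42 CPM with TGFB1 and 138.8 ± 5.37 CPM with Vehicle, and CADM4 at 140.99 ± 6.13 CPM with TGFB1 and 142.2 ± 2.603 CPM with Vehicle. NECTIN4, named after its value was seen, had 48, 25 and 21 counts with TGFB1 and 10, 8 and 15 with Vehicle, without overlap, and did not pass (log2 fold change 1.35 ± 0.49, SE, adjusted p = 0.17 by edgeR). The median of the 7 was -0.01.

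The receptors for these ligands belong to lymphocytes and myeloid cells, and most were near absent here. Of 15 listed receptor genes 12 averaged under 1 CPM, and PDCD1, which encodes PD-1, had 0 counts in all 6 libraries. CD96, which encodes a receptor for PVR on T and NK cells, was an exception named after its value was seen. It stood at 130.3 ± 5.27 CPM with TGFB1 and 133.04 ± 5.12 CPM with Vehicle (SD, n = 3 each), while TIGIT had 1 count in all. Overlap of CD96 exons with those of other genes is not given here, and the strand setting was not stated. CD44, a broadly expressed partner of galectin-9, stood at 326.0 ± 10.7 CPM with TGFB1 and 315.8 ± 14.2 CPM with Vehicle, and P4HB, another such partner, at 321.7 ± 10.2 CPM with TGFB1 and 284.2 ± 22.8 CPM with Vehicle. Of the 8 tested, 0 rose and 0 fell by edgeR's adjusted p, and the median log2 fold change was -0.19. Of these 8, 1 had an unadjusted p under 0.05, as did 12.3% of all tested genes. That 1 was P4HB (adjusted p = 0.0582), which passed as higher without Vehicle replicate 3 (0.00127) and with no low-count filter (0.0351), and 529 of its exonic bases lie under an opposite-strand gene.

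NT5E encodes CD73, the surface enzyme that turns AMP into adenosine, which restrains T cells. It lies on chromosome 6 from 85449584 to 85495791 (plus strand). NT5E stood at 144.03, 151.4 and 146.2 CPM in TGFB1 replicates 1, 2 and 3 and at 147.5, 153.3 and 141.4 CPM in Vehicle replicates 1, 2 and 3. The groups overlapped, and the 95% interval of the fold ran from 0.928 to 1.07 (adjusted p = 0.996 by edgeR). ENTPD1, which encodes CD39, the enzyme upstream of CD73 that yields AMP, stood at 8.17 ± 0.6897 CPM with TGFB1 and 8.92 ± 0.647 CPM with Vehicle.

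Of 16 listed genes that make, break down, carry or sense adenosine 10 were tested, 1 rose and 0 fell. Their median log2 fold change was 0.06, and over all tested genes 2.43% were called higher and 0.887% lower. ADORA1, which encodes the A1 adenosine receptor, stood at 5.505, 5.91 and 5.399 CPM in TGFB1 replicates 1, 2 and 3 and at 3.595, 3.08 and 4.04 CPM in Vehicle replicates 1, 2 and 3. Its groups did not overlap (log2 fold change 0.65 ± 0.17, SE, adjusted p = 0.0291 by edgeR). Leaving out Vehicle replicate 1 (0.055) or 2 (0.182), or TGFB1 replicate 1 (0.105), 2 (0.13) or 3 (0.0808), took its adjusted p above 0.05. Of its exonic bases 354 lie under an opposite-strand gene, so its counts are uncertain. ADORA2B, another adenosine receptor gene, stood at 27.9 ± 1.22 CPM with TGFB1 and 27.9 ± 2.31 CPM with Vehicle. SLC29A1, which encodes a transporter of adenosine, stood at 38.5 ± 2.19 CPM with TGFB1 and 29.8 ± 5.9 CPM with Vehicle. Its groups did not overlap, and it did not pass (log2 fold change 0.36 ± 0.10, SE, adjusted p = 0.056 by edgeR). ENTPD1, ADORA2B and SLC29A1 were named after their values were seen.

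CD47 encodes the surface protein that binds SIRP-alpha on macrophages and blocks phagocytosis. It lies on chromosome 3 from 108043094 to 108091862 (minus strand). CD47 stood at 117.2, 131.4 and 121.7 CPM in TGFB1 replicates 1, 2 and 3 and at 125.1, 129.3 and 117.9 CPM in Vehicle replicates 1, 2 and 3. The groups overlapped, and the 95% interval of the fold ran from 0.9195 to 1.08 (adjusted p = 0.984 by edgeR). Of 8 listed partners and maturation genes of CD47 7 were tested, and 0 rose and 0 fell by edgeR's adjusted p. Of these 7, 2 had an unadjusted p under 0.05, SIRPA and THBS1, as did 12.3% of all tested genes. The median log2 fold change was -0.05. THBS1, which encodes thrombospondin-1, a secreted ligand of CD47, stood at 3976 ± 145.3 CPM with TGFB1 and 4324 ± 269.1 CPM with Vehicle (log2 fold change -0.12 ± 0.05, SE, adjusted p = 0.198). It passed as lower without Vehicle replicate 3 (adjusted p = 0.012). CALR, which encodes the phagocytosis signal calreticulin, stood at 656.7 ± 23.9 CPM with TGFB1 and 694.8 ± 33.95 CPM with Vehicle. Opposite-strand genes overlie 694 exonic bases of THBS1 and 270 of CALR.

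LGALS9 encodes galectin-9, a lectin ligand of TIM-3. It had 0, 0 and 1 counts in TGFB1 replicates 1, 2 and 3 and 1, 1 and 2 counts in Vehicle replicates 1, 2 and 3, under the limit that a count of 0 allows, so no fold change is given. Annotated genes share 294 exonic bases with LGALS9 on the same strand, where reads could have been lost or added. LGALS9B and LGALS9C are near-identical copies, and reads shared with them could be divided or dropped in counting. They had at most 1 and 6 counts in a library. Of 10 other galectin genes 4 were tested, and 0 rose and 0 fell by edgeR's adjusted p, with a median of -0.01. Of these 4, 0 had an unadjusted p under 0.05, against 12.3% of all tested genes. LGALS1, which encodes the immunosuppressive lectin galectin-1, stood at 629.0 ± 17.5 CPM with TGFB1 and 636.6 ± 53.7 CPM with Vehicle, and LGALS3BP, which encodes a galectin-3 binding protein, at 254.5 ± 7.81 CPM with TGFB1 and 238.2 ± 8.12 CPM with Vehicle.

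**Figure D3:**
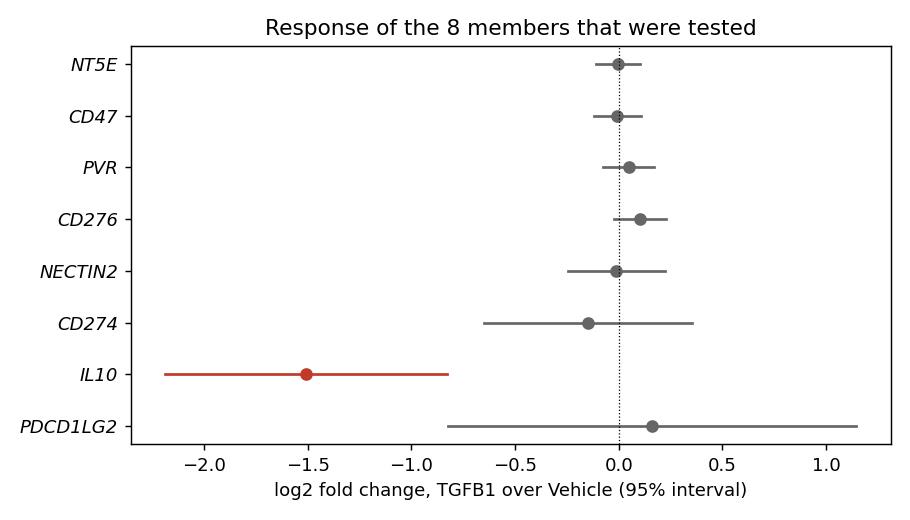
log2 fold change (TGFB1 over Vehicle) of the 8 tested genes with 95% intervals. IL10 in red is the gene whose interval, -2.19 to -0.83, lies away from 0, while that of NT5E spans -0.11 to 0.10 and that of PDCD1LG2 spans -0.82 to 1.14.

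Levels can be compared between genes once counts are divided by length. In CPM per kilobase of merged exon the order of mean levels over the 6 libraries was NT5E (32.5), PVR (19.3), CD47 (15.05), CD276 (10.5), NECTIN2 (3.34), IL10 (0.617), CD274 (0.578), PDCD1LG2 (0.253), VTCN1 (0.01199) and LGALS9 (0.00472). NT5E exceeded 91.2% of the tested genes on this scale, CD276 74.7% and NECTIN2 52.7%, while CD274 exceeded 23.9% and PDCD1LG2 12.3%. Neighbours in this order had ranges over the 6 libraries that did not overlap, except IL10 with CD274 and VTCN1 with LGALS9. The IL10 level was 0.3204 ± 0.0558 CPM per kilobase with TGFB1, where CD274 had 0.546 ± 0.0846, and 0.914 ± 0.0433 with Vehicle, where CD274 had 0.609 ± 0.114 (SD, n = 3 each). IL10 was thus below CD274 in mean level with TGFB1 and above it with Vehicle. The order of the 10 was the same when the longest transcript replaced merged exons.

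A wider list of immune-modulating genes held suppressive enzymes and cytokines and also ligands that stimulate NK or T cells, such as CD70, TNFSF9 and MICA. Of 41 listed 28 were tested, 4 rose, 2 fell and 22 did not pass, with a median log2 fold change of 0.11. Over all tested genes 2.43% were called higher and 0.887% lower with TGFB1. LIF, a cytokine of the IL6 family, stood at 73.04 ± 2.68 CPM with TGFB1 and 18.98 ± 2.04 CPM with Vehicle. The monocyte chemokine gene CCL2 stood at 29.5 ± 1.54 CPM with TGFB1 and 11.9 ± 1.52 CPM with Vehicle, the vascular growth factor gene VEGFA at 101.3 ± 7.26 CPM with TGFB1 and 48.9 ± 3.96 CPM with Vehicle, and the heme oxygenase gene HMOX1 at 27.7 ± 0.779 CPM with TGFB1 and 17.2 ± 1.15 CPM with Vehicle. These were the 4 that rose, with adjusted p-values by edgeR of at most 1.41e-06. Opposite-strand genes overlie 267 exonic bases of LIF and 188 of VEGFA. PTGS2, which encodes the prostaglandin enzyme COX-2, and the neutrophil chemokine gene CXCL8, both named after their values were seen, were the 2 that fell. PTGS2 stood at 9.48 ± 0.878 CPM with TGFB1 and 14.7 ± 1.94 CPM with Vehicle, and CXCL8 at 36.4 ± 4.99 CPM with TGFB1 and 48.7 ± 4.87 CPM with Vehicle (SD, n = 3 each). Their adjusted p-values by edgeR were 0.000769 and 0.00352. Over all the related lists together, 100 of 146 genes were tested, 7 rose, 3 fell and 90 did not pass.

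**Figure D4:**
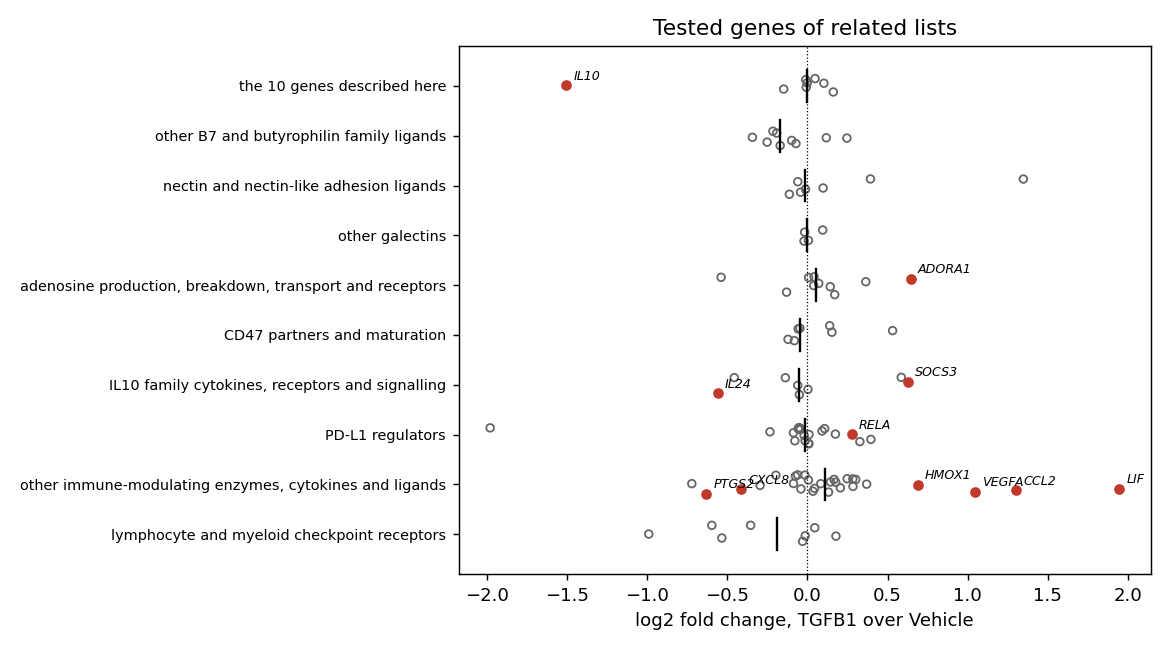
log2 fold change (TGFB1 over Vehicle) of the tested genes in the 10 described here and in related lists. Filled red points passed the test and are labelled, open points did not, and black bars are medians; among the 10, IL10 at -1.51 is the one filled point.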

How the data were processed

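RNA of A375 cells was sequenced after ribosomal RNA depletion, per the labels' protocols, although the labels also give the molecule as polyA RNA. The authors deposited unnormalized counts of reads for each Ensembl gene ID in the 6 libraries. The submitters' processing notes name cutadapt, TopHat2 2.1, HTSeq and GRCh38. Strand setting, counting mode and annotation release: not stated in these sources. Reads shared between overlapping or near-identical genes could be lost or divided. Coordinates and exon lengths are those of GENCODE 29, joined by gene ID.

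Genes were kept with filterByExpr (minimum count 10, minimum total 15), scaled by TMM and tested with edgeR 4.0.16 in R 4.3.3 (robust quasi-likelihood F-test, group as the single term). Benjamini-Hochberg adjustment covered the 16690 tested genes, and 0.05 was the threshold. Log2 fold changes are TGFB1 over Vehicle. The limit for a count of 0 covers counting error only. The test was checked on simulated data. Alternatives were other scalings and filters, DESeq2 1.42.0, limma-voom (limma 3.58.1), a replicate block, a threshold of 0.01, leaving out each library, and the longest transcript as length.

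The 10 genes, the related lists and the tests were chosen with earlier results of these data known. Genes were named by rule: all 10, up to 4 called genes of each list by smallest p or otherwise the 2 with the highest mean CPM, the nearest tested neighbours of a called gene and the 3 genes most like it. Some named genes are not reported here.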

Additional observations from a re-analysis of the deposited data

How the results depend on the processing

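IL10 stayed lower with TGFB1 and past the threshold in all 15 alternatives, with log2 fold changes from -1.52 to -1.50 under the other scalings, filters, tools, threshold and the replicate block (adjusted p = 0.000783 to 0.0101), and from -1.66 to -1.42 when each library was left out (adjusted p = 0.00521 to 0.0355). The filter of at least 50 counts in 3 libraries was met by IL10 through its Vehicle libraries alone (50, 61 and 65 counts). With TGFB1 it had 20, 22 and 27 counts, so that setting is no support for the fall. The number of the 10 genes called was 1 in every alternative. The count of all called genes, 553, was 365 to 923 when each library was left out, with 365 without TGFB1 replicate 1 and 923 without Vehicle replicate 3 (the cause was not tested), 370 at a threshold of 0.01, and 496 to 603 otherwise. CD274, CD276 and PVR kept their sign and stayed uncalled in the alternatives run. Some uncalled genes changed sign, and the cause was not tested. NT5E was 0.0065 with total-count scaling and 0.0097 with no low-count filter, and CD47 was 0.00054 and 0.0039 under the same settings. With each library left out, NT5E ranged from -0.031 to 0.029, CD47 from -0.052 to 0.029, NECTIN2 from -0.099 to 0.045, PDCD1LG2 from -0.080 to 0.44, CADM4 from -0.049 to 0.0080, LGALS1 from -0.065 to 0.053, CD96 from -0.053 to 0.0028 and ITGAX from -0.94 to 0.064, the high end of ITGAX being without Vehicle replicate 1.

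Same-numbered libraries did not deviate together (correlations of -0.0296, 0.0418 and 0.00761 for replicates 1, 2 and 3), so the numbers are not taken to pair them. With a replicate block 601 genes were called, and IL10 stayed called (log2 fold change -1.51, adjusted p = 0.0101), while P4HB passed (0.0186). With the stricter filter of 50 counts, PDCD1LG2 was not tested. Depth limits VTCN1, LGALS9 and PDCD1LG2 most, and RNA levels do not give protein levels.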

Other observations

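Several ligands that act on NK and T cells in the stimulating direction were also detected and did not pass the test. Of those below, TNFSF4 and ULBP1 were low. The ligand genes CD80, CD86, ICOSLG and TNFSF18 had too few counts to be tested. TNFSF18 had 22 counts in all with TGFB1 and 8 with Vehicle. CD70, the ligand of CD27, stood at 41.8 ± 0.776 CPM with TGFB1 and 41.7 ± 3.91 CPM with Vehicle (SD, n = 3 each). TNFSF9, the ligand of 4-1BB, stood at 35.4 ± 3.05 CPM with TGFB1 and 36.4 ± 2.87 CPM with Vehicle. TNFSF4, the ligand of OX40, stood at 0.949 ± 0.275 CPM with TGFB1 and 1.56 ± 0.157 CPM with Vehicle, with groups that did not overlap (log2 fold change -0.72, adjusted p = 0.369 by edgeR). Of the NKG2D ligand genes, MICA stood at 13.4 ± 0.7799 CPM with TGFB1 and 12.2 ± 1.12 CPM with Vehicle, MICB at 12.9 ± 1.68 CPM with TGFB1 and 11.7 ± 0.982 CPM with Vehicle and ULBP2 at 11.3 ± 0.9399 CPM with TGFB1 and 10.01 ± 0.778 CPM with Vehicle. ULBP1 stood at 0.462 ± 0.366 CPM with TGFB1 and 0.391 ± 0.227 CPM with Vehicle, and ULBP3 at 5.62 ± 0.492 CPM with TGFB1 and 5.93 ± 0.217 CPM with Vehicle. The log2 fold changes of MICA, MICB, ULBP1, ULBP2 and ULBP3 were 0.13, 0.14, 0.28, 0.18 and -0.07, with adjusted p-values by edgeR from 0.622 to 0.921. These genes were named after their values were seen.

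Of the 14 tested melanoma and melanocyte markers 1 rose and 1 fell, against 2.43% and 0.887% of all tested genes. The gene that rose was VIM, the vimentin gene (log2 fold change 0.16, adjusted p = 0.0406 by edgeR), and 1260 of its exonic bases lie under an opposite-strand gene. The gene that fell was MITF, the melanocyte master regulator (log2 fold change -0.23, adjusted p = 0.0355). Upper-quartile scaling raised the adjusted p of VIM to 0.0795, and leaving out 1 library at a time raised it to between 0.111 and 0.239 in 5 of 6 cases, all but Vehicle replicate 3. For MITF it was 0.0537 with limma-voom, 0.0854 with no low-count filter, and 0.107 to 0.229 without Vehicle replicate 1 or 2 or TGFB1 replicate 1 or 3. Of the 3 leukocyte and 6 fibroblast and endothelial markers tested, 0 passed by edgeR's adjusted p. 1 of them, LUM, had an unadjusted p under 0.05, as did 12.3% of all tested genes. In CPM, LYZ and ITGAX were the highest of the leukocyte list, and KDR and LUM the highest of the fibroblast and endothelial list. Opposite-strand genes overlie 599 exonic bases of LYZ, so its counts and the leukocyte sum are uncertain. LYZ stood at 6.05 ± 0.361 CPM with TGFB1 and 6.62 ± 0.797 CPM with Vehicle, ITGAX at 1.16 ± 0.195 CPM with TGFB1 and 1.84 ± 1.28 CPM with Vehicle, KDR at 14.7 ± 0.769 CPM with TGFB1 and 15.6 ± 2.43 CPM with Vehicle and LUM at 7.75 ± 0.821 CPM with TGFB1 and 9.69 ± 0.836 CPM with Vehicle.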
